A study of Mus musculus with 63 samples.

Results

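Ski and its close relative SnoN (gene Skil), the receptor-activated SMADs Smad2 and Smad3, the common partner Smad4 and the inhibitory Smad7 were followed as transcripts in the developing mouse cortex. These 6 genes are the rows of the deposited table that carry those symbols, 6 of 23078 genes. The series has 63 RNA libraries of cells sorted from the dorsal cortex of C57Bl/6 embryos, in 19 groups of 2 to 6 libraries. Every library carries the same genotype, Ski knock-out, so no comparison here measures an effect of Ski. The part of its loss in any value cannot be told apart. Neural stem cells (NSC) carried the reporter Hes5::GFP, and their 26 libraries cover E11.5 to E18.5. Basal progenitors (BP, 24 libraries, E12.5 to E18.5) and newborn neurons (NBN, 13 libraries, E15.5 to E18.5) both carried Tbr2::GFP, and the labels do not say which gate parted them. Embryos per library are not stated, so p-values measure the spread between libraries, which may be technical in part.

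TGF-beta and activin ligands bind paired receptor kinases that phosphorylate SMAD2 and SMAD3. Phosphorylated SMAD2 and SMAD3 join SMAD4, enter the nucleus and regulate transcription, while SMAD7 blocks the receptors and recruits ubiquitin ligases to them. Ski and SnoN bind the SMAD complex on DNA and bring in co-repressors such as NCOR and histone deacetylases, and SnoN and SMAD7 are known targets of the pathway that feed back on it.

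By identifier and position (gene spans of RefSeq on GRCm38.p6), Ski is ENSMUSG00000029050.9 at chr4:155154075-155222535 and Skil is ENSMUSG00000027660.10 at chr3:31095058-31122923. Smad2 is ENSMUSG00000024563.9 at chr18:76241090-76311748, Smad3 is ENSMUSG00000032402.6 at chr9:63646766-63757994, Smad4 is ENSMUSG00000024515.7 at chr18:73634790-73703791 and Smad7 is ENSMUSG00000025880.5 at chr18:75367365-75395935.

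The labels were checked against markers. Hes5, the gene behind the NSC reporter, had a median of 113 TPM and a highest value of 215 TPM in NSC, against at most 6.96 TPM in BP and at most 6.30 TPM in NBN. Eomes (Tbr2), which marks basal progenitors, was at 294 to 656 TPM in BP and 6.13 to 93.5 TPM in NBN, but also at 22.3 to 607.5 TPM in NSC. The summed level of 9 neuronal markers (such as Tubb3, Dcx and Neurod6) was 741 to 6938 TPM in NSC, 4370 to 6901 TPM in BP and 7159 to 9878 TPM in NBN. The NSC libraries therefore hold progenitor and neuron transcripts beside stem cell ones. All libraries are labelled female, whereas 4 Y-linked genes summed to at least 10 TPM in 39 of 63. Since these are bulk samples, fewer cells of a type and less RNA per cell cannot be told apart.

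None of the 6 genes was at 0 in any library, and their levels covered a wide range. TPM is a level per transcript length, so levels can be set side by side between genes. For Ski, the knocked-out gene, this holds less, since the labels do not name the deleted part. Smad4 (78.8 to 129 TPM, median 106) and Smad2 (65.9 to 114.9 TPM, median 95.9) were the most abundant. Skil (14.1 to 84.0 TPM, median 35.5) and Ski (17.2 to 53.1 TPM, median 33.8) were intermediate. Smad3 ran from 2.44 to 88.5 TPM, with a median of 14.6 TPM. Smad7 stayed lowest in most libraries, at 3.05 to 9.44 TPM with a median of 5.93 TPM. The highest of the 19 group means was 23.8 times the lowest for Smad3, 3.66 times for Skil, 2.55 times for Ski, 2.35 times for Smad7, 1.46 times for Smad4 and 1.29 times for Smad2. Smad3 thus had the widest range of the 6 between groups, while the levels of Smad2 and Smad4 moved little.

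**Figure D1:**
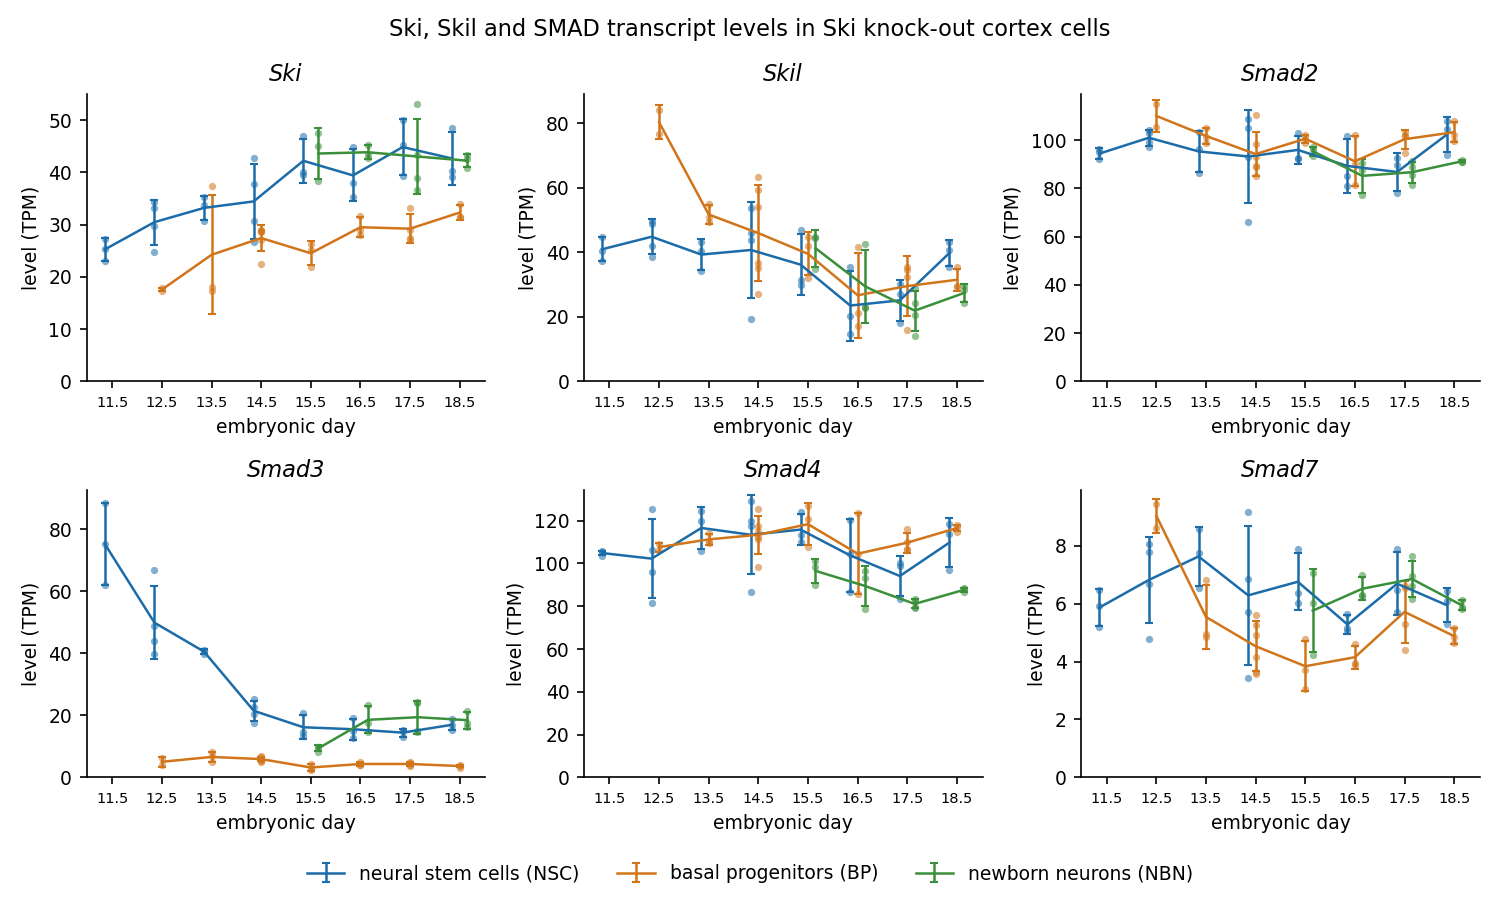
TPM of the 6 genes (vertical axes, each starting at 0) against embryonic day, with 1 point per library and the group mean ± SD as line and bar, coloured by cell type. Smad3 falls in NSC from a mean of 75.3 TPM at E11.5 to 17.0 TPM at E18.5 and stays at or below 8.01 TPM in every BP library, whereas Smad2 and Smad4 keep to narrow bands.

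Differences are given in log2(TPM + 1) between group means, averaged over the days that both cell types share, and courses as the change between the first and the last day of a straight line through a cell type's group means. They were tested with limma, and a gene passes at a Benjamini-Hochberg adjusted p under 0.05 over all 15231 genes tested. In NSC against BP 3 of the 6 passed, Ski, Smad3 and Smad7, all higher, where 48% of all genes passed and 27.2% were higher. Smad3 alone was higher there by at least 1, as were 2.56% of all genes. Between NBN and BP 5 of 6 passed, where 58.5% of all genes did. Ski, Smad3 and Smad7 were higher in NBN (25.3% of all genes), Smad3 by at least 1 (5.75%), and Smad2 and Smad4 were lower (33.3%). Between NBN and NSC 1 of 6 passed, Smad4, lower in NBN, where 54.6% of all genes passed and 32.8% were lower. Over the NSC days 3 of 6 passed, beside 64.9% of all genes: Ski rose (37.1% of all genes), and Skil and Smad3 fell (27.7%), Smad3 by at least 1 (8.17%). Over the BP days 4 of 6 passed, beside 42.6%: Ski rose (27.5%), and Skil, Smad3 and Smad7 fell (15.1%), Skil by at least 1 (4.39%). Over the NBN days 1 of 6 passed, Smad3, which rose, beside 16% of all genes that passed and 10.9% that rose. Of the differences between courses, 1 of 6 passed for NSC minus BP, that of Smad3, beside 29.8% of all genes, 15.6% with the lower slope in NSC and 3.66% lower by at least 1. By limma 0 of 6 passed for NBN minus BP, beside 3.41%, and 0 of 6 for NBN minus NSC, beside 10.6%, and at an unadjusted p under 0.05 there was 1 gene in each, Smad3 in both. On single days, library ranges did not overlap for 13.7% to 54.7% of all genes between NSC and BP, 32.9% to 67.5% between NBN and BP, and 24.1% to 68.2% between NBN and NSC. Against such shares the number of the 6 genes that passed sets them apart in no comparison, and the sizes and patterns below carry the description.

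Ski is the gene knocked out, and it comes first for that reason. Its transcript signal was present in all 63 libraries. A gene-level TPM sums reads over all exons and the labels do not name the deleted part, so the level does not check the genotype. In NSC the 3 libraries of E11.5 were at 27.3, 23.0 and 25.4 TPM, and those of E18.5 at 48.6, 40.3 and 39.2 TPM. All NSC libraries of E18.5 lay above all those of E11.5. In BP the 2 libraries of E12.5 were at 17.8 and 17.3 TPM, and the 3 of E18.5 at 31.6, 34.0 and 31.4 TPM, again with no overlap. At E13.5 the BP libraries were at 18.1, 37.4 and 17.2 TPM, and the second stands far above the other two. The 6 BP libraries of E14.5 had a lowest, median and highest value of 22.4, 28.7 and 29.1 TPM. In NBN Ski was at 36.7 to 53.1 TPM over 13 libraries, with group means between 42.3 ± 1.29 TPM (SD, n = 3, E18.5) and 43.9 ± 1.30 TPM (SD, n = 3, E16.5). Ordered by level, NSC of E17.5 (44.9 ± 5.36 TPM, SD, n = 3) and NBN of E16.5 came first and BP of E12.5 (17.6 ± 0.343 TPM, SD, n = 2) last. In all 18 steps of that order the neighbouring groups overlapped.

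Ski was higher in stem cells and neurons than in basal progenitors. NSC exceeded BP by 0.53 ± 0.06 (SE, adjusted p = 2.68e-10), and the day means were higher in 7 of 7 days, with library ranges apart on 5. The exceptions were E13.5 and E14.5. NBN exceeded BP by 0.57 ± 0.08 (SE, adjusted p = 2.26e-08), with ranges apart on 4 of 4 days. NBN libraries lay above BP libraries on every shared day for 10.1% of all genes tested. Between NBN and NSC the difference was 0.032 ± 0.081 (SE, adjusted p = 0.767).

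Promoters of 2 of the 6 genes, Ski and Smad3, were matched in the RefSeq table. Skil had no entry there, and Smad2, Smad4 and Smad7 were left out because of where they lie in the genome. The levels of the genes played no part in this choice. The sequences are from RefSeq (GRCm38.p6), bases 250 to 61 before the annotated start on the gene's strand, which is the minus strand for both genes. The Ski window is chr4:155222596-155222785 and the Smad3 window is chr9:63758055-63758244, both upstream of the first exon. Capitals mark GGCGC on either strand, a GC-rich motif that SMAD proteins can bind.
Ski: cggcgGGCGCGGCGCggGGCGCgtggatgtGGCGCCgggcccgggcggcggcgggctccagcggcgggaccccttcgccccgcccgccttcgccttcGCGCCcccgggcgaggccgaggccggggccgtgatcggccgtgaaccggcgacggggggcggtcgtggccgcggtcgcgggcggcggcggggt
Smad3: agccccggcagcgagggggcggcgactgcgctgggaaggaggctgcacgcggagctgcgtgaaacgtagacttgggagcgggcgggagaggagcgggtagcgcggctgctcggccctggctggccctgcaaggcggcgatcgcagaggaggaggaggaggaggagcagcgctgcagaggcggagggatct
The Ski window had 6 matches, counted on both strands with overlaps, and a GC content of 86.3%, and the Smad3 window had 0 matches and a GC content of 72.1%. Of 27025 RefSeq mouse promoters, 24.2% hold GGCGC or its complement in the same 190 bases. CAGAC, the other known SMAD-binding motif, was in neither window, and 34.4% of promoters hold it or its complement. A match is a string of letters and no evidence of binding, and no match says nothing about the factor. 

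Smad3 had the widest range between groups. It encodes a signal-transducing SMAD that binds DNA directly. In NSC its level was 88.5, 75.4 and 62.0 TPM in the 3 libraries of E11.5, then 44.0, 39.9, 48.9 and 66.9 TPM in the 4 of E12.5. At E13.5 the libraries were at 41.2, 40.7 and 39.7 TPM, and at E14.5 at 25.2, 22.6, 17.51 and 20.5 TPM. The fall between these last days leaves a gap, with no overlap. In the later NSC libraries the level was 20.6, 13.4 and 14.49 TPM at E15.5, 12.6, 14.8 and 19.2 TPM at E16.5, 14.9, 13.0 and 15.4 TPM at E17.5, and 15.3, 16.9 and 18.7 TPM at E18.5. Neighbours among these 4 groups in the order of means overlap.

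Basal progenitors had little Smad3 on any day. The BP libraries were at 3.92 and 6.11 TPM at E12.5 and at 4.91, 8.01 and 6.81 TPM at E13.5, and the 6 of E14.5 had a lowest, median and highest value of 5.08, 5.74 and 6.89 TPM. They were at 2.44, 2.67 and 4.40 TPM at E15.5, 3.95, 3.92 and 5.07 TPM at E16.5, 4.97, 3.95, 3.54 and 4.78 TPM at E17.5, and 3.75, 4.01 and 3.16 TPM at E18.5. All 24 BP libraries lay below all NSC and NBN libraries. Newborn neurons were at 8.28, 9.94 and 9.83 TPM at E15.5, then at 17.6, 23.3 and 14.8 TPM at E16.5, 24.2, 14.9, 23.9 and 14.6 TPM at E17.5, and 21.5, 16.3 and 17.54 TPM at E18.5. The E15.5 neurons stand apart below the later ones and above the BP libraries. Of the 18 steps in the order of group means for Smad3, 3 showed no overlap: between NSC of E13.5 and NSC of E14.5, between NSC of E17.5 and NBN of E15.5, and between NBN of E15.5 and BP of E13.5.

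In the test, NSC exceeded BP in Smad3 by 2.06 ± 0.07 (SE, adjusted p = 1.27e-27). Averaged over the 7 shared days the means were 25.0 ± 14.3 TPM in NSC and 4.70 ± 1.21 TPM in BP (SD between day means). Ranges were apart with NSC higher on 7 of 7 days, from a difference of 3.08 at E12.5 to 1.54 at E17.5. Of all genes tested, 0.972% had NSC libraries above BP libraries on every shared day. NBN exceeded BP by 1.79 ± 0.10 (SE, adjusted p = 2.81e-21), with ranges apart on 4 of 4 days, where 10.1% of all genes had NBN higher on every shared day. Between NBN and NSC the mean difference was 0.0021 ± 0.0985 (SE, adjusted p = 0.988). On single days NBN was lower than NSC at E15.5 (difference -0.71, ranges apart) and higher at E16.5, E17.5 and E18.5 (differences 0.24, 0.37 and 0.11, ranges overlapping).

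The courses of Smad3 also differed between cell types. The NSC level fell by 2.29 ± 0.15 (SE, adjusted p = 3.61e-18), the BP level fell by 0.52 ± 0.17 (SE, adjusted p = 0.0101) and the NBN level rose by 0.83 ± 0.19 (SE, adjusted p = 0.0011). The fall in BP is less firm: without replicate 2 of E12.5 it was -0.35 (adjusted p = 0.175), and without E18.5 -0.52 (adjusted p = 0.0562). Over the shared days E12.5 to E18.5 the NSC slope was lower than the BP slope by -1.14 ± 0.23 (SE, adjusted p = 0.000149). Against NSC over E15.5 to E18.5, the NBN slope differed by 0.78 ± 0.27 (SE, limma, adjusted p = 0.0516), which misses the threshold. It passes with median-of-ratios scaling (0.90, adjusted p = 0.0337) and without any of 17 of the 63 libraries (adjusted p from 0.0334 to 0.05). Several of these 17 are BP libraries or NSC libraries of E11.5 to E14.5, outside this comparison. Leaving those out keeps the difference at 0.78 and moves only its adjusted p. The slope difference of NBN and BP was 0.67 ± 0.27 (SE, adjusted p = 0.216).

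Marker levels also changed over the NSC days, not always in step with Smad3. The summed 9 stem cell markers had medians of 2527 TPM at E11.5, 2586 TPM at E13.5, 1739 TPM at E15.5 and 1280 TPM at E17.5, and 6736 TPM at E18.5. The summed neuronal markers had medians of 1768, 3081, 5455, 6322 and 2909 TPM on the same days. The sum at E18.5 ranged from 3258 to 6740 TPM over the 3 libraries, and Smad3 was at 17.0 ± 1.74 TPM there (SD, n = 3). Such a sum follows its most abundant genes: over the NSC days 7 of the 9 stem cell markers fell and 2, Slc1a3 and Fabp7, rose, with a median change of -1.30. Of the neuronal markers 6 of 9 rose and 0 fell over these days. Microglia markers rose for 9 of 9 (median 2.12) and markers of meninges and fibroblasts for 6 of 6 tested (median 1.58). Their sums stayed low in most NSC libraries, at 2.08 to 322 TPM (median 4.16 TPM) for microglia and 4.19 to 181 TPM (median 7.67 TPM) for meninges. Interneuron markers (7 genes, such as Dlx1 and Gad2, all detected in each cell type) summed to 56.7 to 760 TPM in NSC, 4.73 to 37.8 TPM in BP and 8.90 to 52.2 TPM in NBN. The part of these transcripts in the Smad3 values was not tested.

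Other markers changed over the NBN days, on which Smad3 rose. Over these days 10.9% of all genes tested rose and 5.08% fell. The 9 microglia markers rose for 9 of 9 (median change 3.27), and their sum had medians of 5.28, 36.3, 61.9 and 118.6 TPM from E15.5 to E18.5, with ranges of 4.42 to 7.10 TPM on the first of these days and 105 to 144 TPM on the last. Of the 8 basal progenitor markers 5 fell and 0 rose (median -1.02), and their sum ran from 239 to 384 TPM at E15.5 and from 201 to 246 TPM at E18.5. Endothelial markers rose for 3 of 8 and fell for 0. The part of these cells in the NBN course of Smad3 was not tested.

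Skil, which encodes SnoN, peaked in the earliest basal progenitors. The 2 BP libraries of E12.5 were at 84.0 and 76.5 TPM, and the 3 of E13.5 at 54.9, 49.3 and 51.0 TPM. Cajal-Retzius markers (6 genes, such as Reln and Trp73) were high on the same days: their sum in BP had medians of 445 TPM at E12.5, 373 TPM at E13.5, 178 TPM at E14.5 and 114 TPM at E15.5, then 220, 217 and 304 TPM up to E18.5. Over the BP days 3 of these 6 markers fell and 1 rose (median -1.02), and their part in the Skil values was not tested. BP of E12.5 is the only group that stands apart from its neighbour in the order of Skil levels, and the other 17 steps overlap. Later BP libraries were lower: 27.1, 45.4 and 63.2 TPM as lowest, median and highest of the 6 at E14.5, 42.0, 31.9 and 44.7 TPM at E15.5, 41.8, 17.2 and 21.1 TPM at E16.5, 32.3, 15.8, 35.4 and 34.6 TPM at E17.5, and 29.6, 29.3 and 35.5 TPM at E18.5. In NSC the libraries were at 37.4, 44.9 and 40.5 TPM at E11.5, 38.7, 48.9, 49.7 and 42.0 TPM at E12.5, 34.1, 43.3 and 40.5 TPM at E13.5, and 53.8, 19.5, 45.9 and 43.8 TPM at E14.5. They were at 31.5, 29.9 and 47.1 TPM at E15.5, 35.6, 20.4 and 14.53 TPM at E16.5, 17.9, 27.1 and 30.3 TPM at E17.5, and 35.4, 40.7 and 43.3 TPM at E18.5. The NSC means were lowest at E16.5 (23.5 ± 10.9 TPM, SD, n = 3) and E17.5 (25.1 ± 6.41 TPM, SD, n = 3), and the mean of E18.5 was 39.8 ± 4.00 TPM (SD, n = 3). NBN libraries were at 44.3, 34.7 and 44.8 TPM at E15.5, 42.5, 23.0 and 22.9 TPM at E16.5, 28.9, 14.1, 20.5 and 24.2 TPM at E17.5, and 28.3, 29.6 and 24.4 TPM at E18.5.

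Over time the courses of Skil and Ski had opposite signs in stem cells and basal progenitors. The BP level of Skil fell by 1.39 ± 0.27 over the span (SE, adjusted p = 2.46e-05) and the NSC level fell by 0.58 ± 0.24 (SE, adjusted p = 0.0278). The NSC fall was not steady, since the lowest means were those of E16.5 and E17.5. As E18.5 minus E11.5 the change was -0.040 (limma, adjusted p = 0.927). Leaving out any of 4 single libraries took the slope past the threshold. The adjusted p was 0.0513 without E16.5 replicate 3, 0.0602 without E11.5 replicate 2, 0.0643 without E18.5 replicate 1 and 0.0721 without E17.5 replicate 1. In NBN the change was -0.63 ± 0.30 (SE, adjusted p = 0.155). Ski rose by 0.74 ± 0.12 in NSC (SE, adjusted p = 8.56e-07) and by 0.71 ± 0.14 in BP (SE, adjusted p = 3.16e-05), and its change in NBN was -0.048 ± 0.155 (SE, adjusted p = 0.889). The slopes of Skil in NSC and BP differed by 0.84 ± 0.36 (SE, adjusted p = 0.0706), which misses the threshold and passes without NSC of E16.5 replicate 3 (0.90, adjusted p = 0.0467), NSC of E17.5 replicate 1 (0.93, adjusted p = 0.0454) or BP of E16.5 replicate 1 (0.92, adjusted p = 0.0356).

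Between cell types no difference in Skil passed. NSC minus BP was -0.23 ± 0.12 (SE, adjusted p = 0.10), with NSC lower on 6 of 7 days and ranges apart on E12.5 and E13.5 only. Over E12.5 to E14.5 alone the difference was -0.47 (adjusted p = 0.0199), and it also passed without the libraries far on the axis described below (-0.22, adjusted p = 0.0177), without NSC of E16.5 replicate 1 (-0.28, adjusted p = 0.0393) and without BP of E17.5 replicate 2 (-0.27, adjusted p = 0.0428). NBN minus BP was -0.085 ± 0.152 (SE, adjusted p = 0.659) and NBN minus NSC was -0.042 ± 0.155 (SE, adjusted p = 0.841).

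The ratio of the 2 transcript levels in a library is a description, with no test of its own. All libraries are Ski knock-out and the deleted part is not named. The Ski level therefore need not stand for intact transcript or protein. Skil over Ski had a median of 1.29 in BP (0.543 to 4.72), 1.09 in NSC (0.323 to 1.95) and 0.659 in NBN (0.325 to 1.17). Skil exceeded Ski in 18 of 24 BP libraries, 16 of 26 NSC libraries and 1 of 13 NBN libraries. Over the 19 group means the 2 genes ran in opposite directions (Pearson r = -0.69, n = 19 groups that share the same libraries for both genes).

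**Figure D2:**
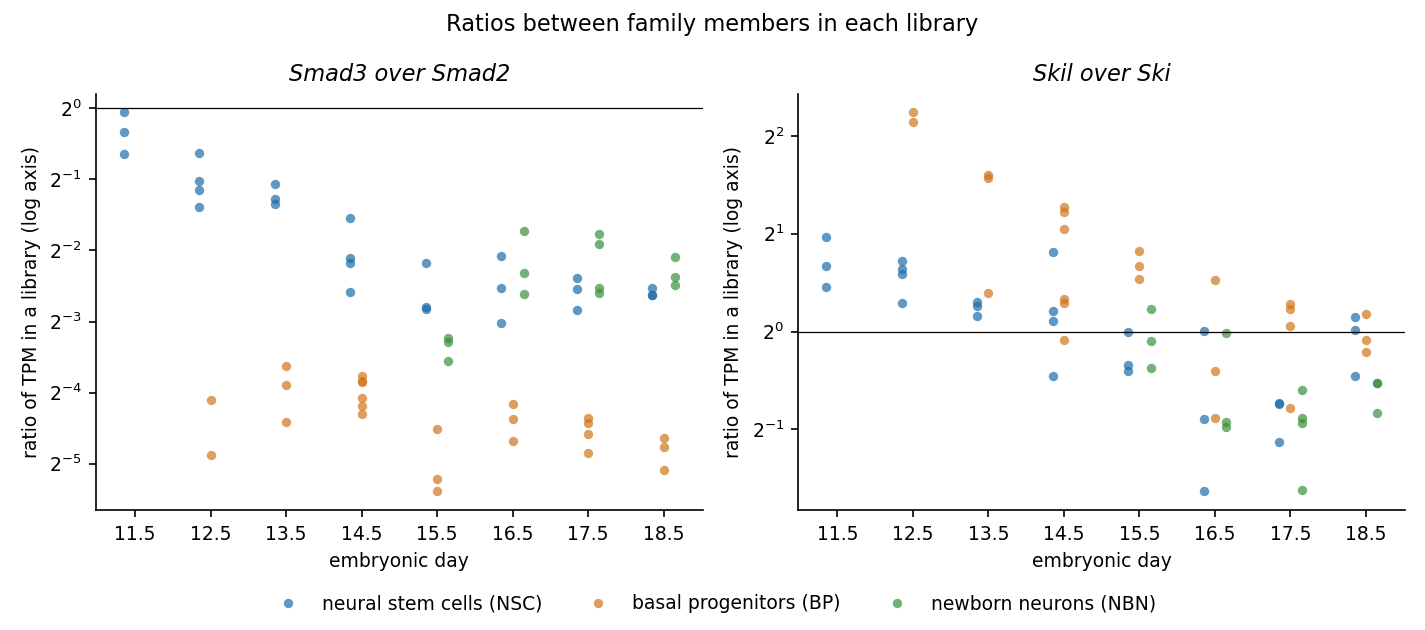
Ratio of TPM within each library (log axes) for Smad3 over Smad2 and for Skil over Ski, against embryonic day, with 1 point per library coloured by cell type and a line at equal levels. Smad3 is below Smad2 in 63 of 63 libraries and nearest to it in NSC of E11.5, and Skil over Ski runs from 4.72 in BP of E12.5 down to 0.323.

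Smad2, the other receptor-activated SMAD, was steady. Its group means ran from 85.2 ± 6.90 TPM in NBN of E16.5 (SD, n = 3) to 110 ± 6.76 TPM in BP of E12.5 (SD, n = 2), and all 18 neighbouring steps overlapped. NBN minus BP was -0.14 ± 0.05 (SE, adjusted p = 0.0169), with NBN lower on 4 of 4 days and ranges apart on 3. That call is lost with median-of-ratios scaling (-0.075, adjusted p = 0.0858) and without E18.5 (-0.13, adjusted p = 0.0825). NSC minus BP was -0.083 ± 0.039 (SE, adjusted p = 0.0723), with NSC lower on 7 of 7 days and ranges apart on 2. It passes without any of 4 single libraries, NSC of E14.5 replicate 1 (-0.095, adjusted p = 0.0321) or replicate 3 (-0.092, adjusted p = 0.0423), NSC of E16.5 replicate 1 (-0.097, adjusted p = 0.0322) or BP of E16.5 replicate 2 (-0.094, adjusted p = 0.0412). NBN minus NSC was -0.057 ± 0.052 (SE, adjusted p = 0.367). Its slopes were -0.045 ± 0.079 in NSC (SE, adjusted p = 0.636), -0.076 ± 0.089 in BP (SE, adjusted p = 0.531) and -0.049 ± 0.099 in NBN (SE, adjusted p = 0.814).

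Because Smad2 was steady, the ratio of the 2 receptor-activated SMADs followed Smad3. Smad2 exceeded Smad3 by a median factor of 1.26 in NSC of E11.5 (1.04 to 1.56), 4.43 in NSC of E14.5 (2.91 to 5.99) and 6.16 in NSC of E18.5 (5.77 to 6.20). In BP the factor had a median of 21.1 over 24 libraries (12.3 to 41.9). In NBN it had a median of 9.75 at E15.5 (9.39 to 11.7) and 5.18 at E18.5 (4.27 to 5.59). The factor was thus smallest in the earliest stem cells and largest in basal progenitors.

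Smad4, the partner that both receptor-activated SMADs share, was lower in newborn neurons. NBN libraries were at 101, 90.1 and 98.6 TPM at E15.5, 96.5, 78.8 and 93.1 TPM at E16.5, 82.4, 79.1, 79.4 and 83.4 TPM at E17.5, and 88.4, 86.7 and 88.1 TPM at E18.5. On the same days BP libraries were at 121, 108 and 127 TPM, then 124, 85.8 and 104 TPM, then 106, 107, 116 and 110 TPM, and at E18.5 114.9, 118 and 117 TPM. The neurons lay below BP on E15.5, E17.5 and E18.5, and the ranges overlapped on E16.5. NBN minus BP was -0.33 ± 0.06 (SE, adjusted p = 2.45e-06). NBN minus NSC was -0.25 ± 0.06 (SE, adjusted p = 0.000403), with ranges apart on E15.5 and E18.5. NSC minus BP was -0.056 ± 0.044 (SE, adjusted p = 0.309). Smad4 exceeded Smad2 in 24 of 26 NSC libraries and 23 of 24 BP libraries but in 5 of 13 NBN libraries. In the order of Smad4 levels 2 of 18 neighbouring steps showed no overlap. No slope of Smad4 passed, with -0.049 ± 0.090 in NSC (SE, adjusted p = 0.65), 0.037 ± 0.102 in BP (SE, adjusted p = 0.808) and -0.16 ± 0.11 in NBN (SE, adjusted p = 0.394).

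Smad7, the inhibitory SMAD, was highest in the same early basal progenitors as Skil. The 2 BP libraries of E12.5 were at 8.62 and 9.44 TPM, those of E13.5 at 4.95, 6.82 and 4.85 TPM, and the 6 of E14.5 had a lowest, median and highest value of 3.56, 4.54 and 5.62 TPM. BP of E12.5 again stands apart from its neighbour in the order, and the other 17 steps overlap. The Cajal-Retzius markers given with Skil were also highest in BP of E12.5, and their part in the Smad7 values was not tested. The lowest group mean was that of BP of E15.5, with libraries at 4.77, 3.69 and 3.05 TPM, and BP of E17.5 was at 4.40, 5.31, 6.60 and 6.55 TPM. In NSC Smad7 ran from 3.43 to 9.17 TPM, both at E14.5, and in NBN from 4.22 to 7.66 TPM. NSC exceeded BP by 0.26 ± 0.07 (SE, adjusted p = 0.00192), higher on 6 of 7 days and lower at E12.5, with ranges apart on 3 of the 6 days and at E12.5. That difference is lost with quantile scaling (0.11, adjusted p = 0.115) and over E12.5 to E14.5 alone (0.13, adjusted p = 0.326). NBN exceeded BP by 0.37 ± 0.09 (SE, adjusted p = 0.00041), higher on 4 of 4 days and apart on 2. NBN minus NSC was 0.021 ± 0.093 (SE, adjusted p = 0.872), and it passes with quantile scaling (0.26, adjusted p = 0.00641). The BP level fell by 0.50 ± 0.16 over the span (SE, adjusted p = 0.00902), a call lost without replicate 2 of E12.5 (-0.46, adjusted p = 0.0563). The slopes in NSC and NBN were -0.095 ± 0.141 (SE, adjusted p = 0.569) and 0.074 ± 0.178 (SE, adjusted p = 0.847).

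An F test for any difference between days gave similar calls. In NSC, Ski (adjusted p = 0.000128), Skil (adjusted p = 0.0267) and Smad3 (adjusted p = 2.75e-16) passed, where 72.7% of all genes did. The call of Skil is lost without NSC of E16.5 replicate 2 (adjusted p = 0.0796) or replicate 3 (adjusted p = 0.143) or NSC of E17.5 replicate 1 (adjusted p = 0.0734). In BP, Ski (adjusted p = 0.00233), Skil (adjusted p = 0.000874), Smad3 (adjusted p = 0.00129) and Smad7 (adjusted p = 0.000907) passed, where 38.6% did. In NBN Smad3 alone passed (adjusted p = 0.000494), where 10.7% did.

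**Figure D3:**
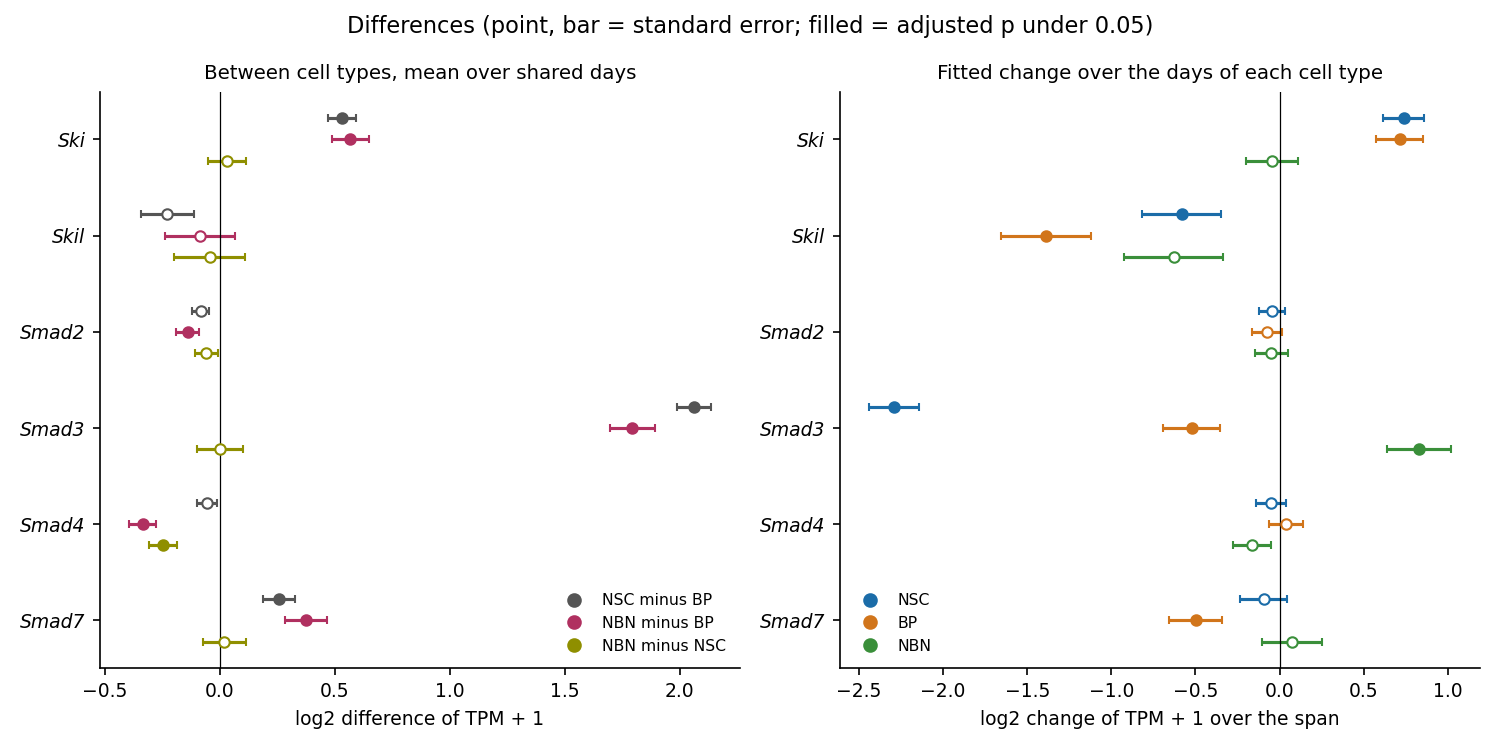
Left, difference in log2(TPM + 1) between cell types, averaged over shared days, and right, fitted change over the days of each cell type, for the 6 genes (points, bars are standard errors, filled points have an adjusted p under 0.05). The largest values are those of Smad3, 2.06 for NSC minus BP and -2.29 for the NSC course.

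The genes differed in how closely libraries of a group agreed. The median coefficient of variation within groups was 17.0% for Skil, 15.7% for Smad3, 13.52% for Smad7, 9.61% for Ski, 7.93% for Smad4 and 6.14% for Smad2. The leading principal component of deviations from group means, computed over all 15231 genes and called the axis here, holds 29.4% of their variance, and 8 of 63 libraries lie beyond 1.5 standard deviations on it. The deviations of Skil followed this axis at r = 0.92 (n = 63 libraries, which share the axis by construction), and 5.11% of all genes had an r as high or higher. For Smad2 r was 0.76, for Smad4 0.68, for Smad7 0.39, for Ski 0.16 and for Smad3 -0.091. In 15 of 19 groups the library lowest on the axis was also the lowest in Skil, against 4 of 19 groups for Smad3. The library lowest of all on it, NSC of E14.5 replicate 2, had 19.5 TPM of Skil and 65.9 TPM of Smad2 where the other 3 of its group had 43.8 to 53.8 TPM and 93.2 to 109 TPM. Deviations of Skil and Smad2 went together at r = 0.80, of Smad2 and Smad4 at 0.73 and of Skil and Smad4 at 0.72, whereas Ski and Skil gave 0.091. Without the 8 libraries the NSC minus BP difference of Skil and its NBN slope (-0.54, adjusted p = 0.042) passed. What the axis stands for was not tested.

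**Figure D4:**
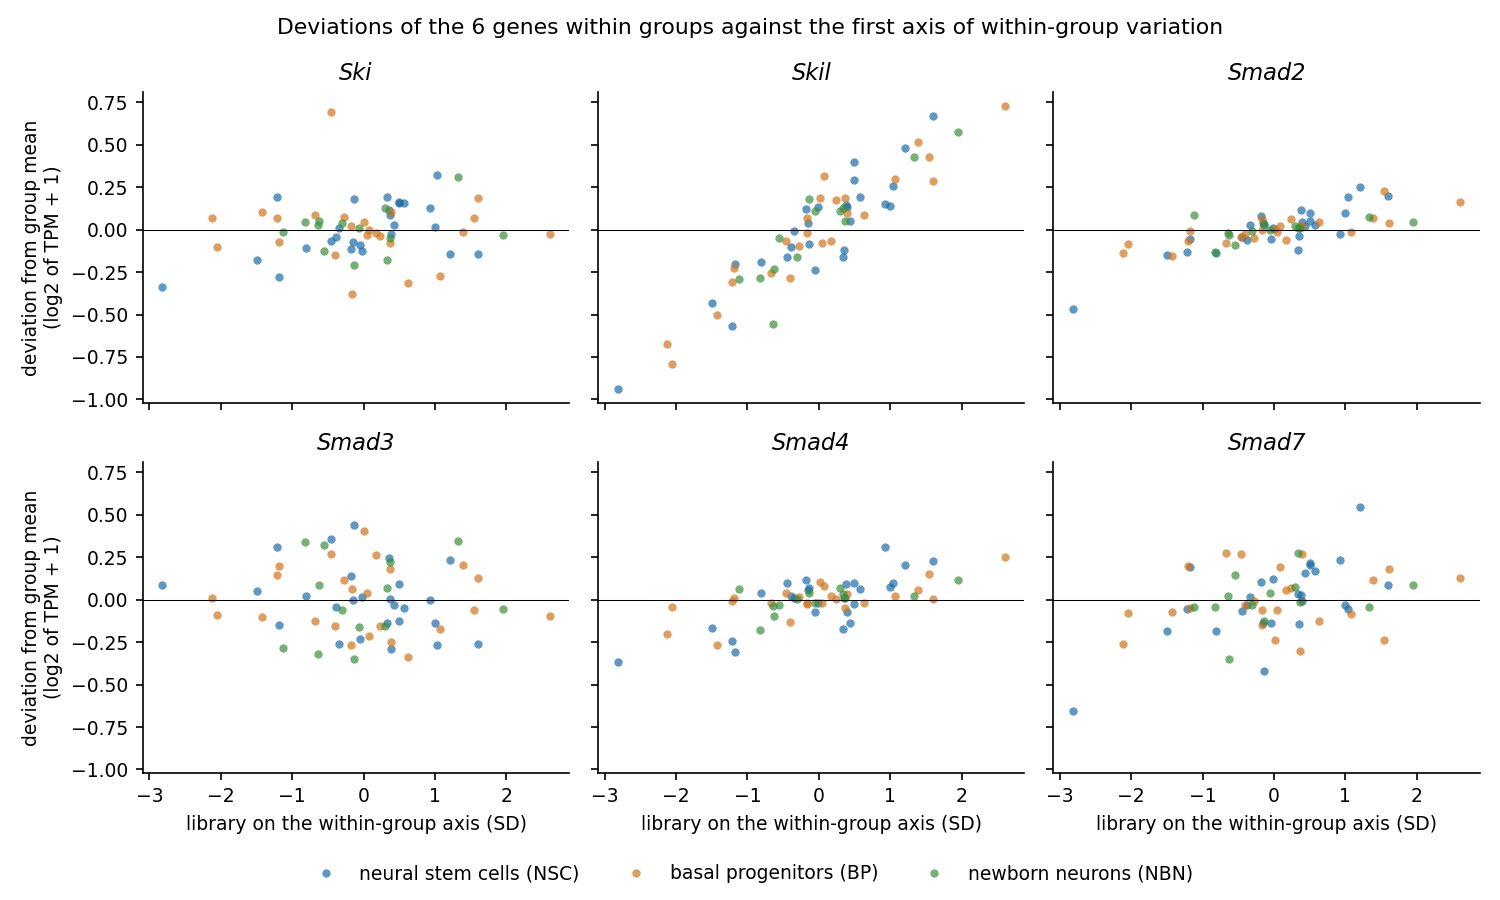
Deviation of each library from its group mean in log2(TPM + 1) for the 6 genes (vertical axes) against the position of the library on the leading component of deviations from group means (horizontal, in standard deviations), coloured by cell type. Skil rises along the axis (r = 0.92) and Smad3 shows no such trend (r = -0.091).

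For each gene the closest profiles over the 19 group means were looked up among the 11240 tested genes that reached a group mean of 10 TPM. Smad3 was most like Galk1, a galactokinase (r = 0.97), Tmem231 (r = 0.96), which belongs to the ciliary transition zone, and Lsm6 (r = 0.95), a factor of RNA processing. Ski was most like Nos1ap (r = 0.96), Rnd1 (r = 0.95) and Zfp651 (r = 0.95). The nearest to Skil were Lcor (r = 0.95), a nuclear receptor co-repressor, Slc4a7 (r = 0.94), a bicarbonate transporter, and Phf14 (r = 0.94). Smad2 was nearest to Pias1 (r = 0.94), a SUMO ligase, Eif4g2 (r = 0.92) and Msantd4 (r = 0.92). Smad4 was nearest to Phf21a (r = 0.96), Syne2 (r = 0.95) and Bpnt1 (r = 0.94). The profile of Smad7 had less close neighbours, 1700113A16Rik (r = 0.86), Dusp7 (r = 0.76) and Zdhhc2 (r = 0.74). These values are descriptions of 19 points that share their libraries.

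Around the 6 genes, the other parts of the pathway moved in both directions. The counts of the lists below stand beside these shares of all genes tested: 27.2% higher and 20.8% lower in NSC than in BP, 25.3% higher and 33.3% lower in NBN than in BP, 37.1% that rose and 27.7% that fell over the NSC days, and 27.5% and 15.1% over the BP days. Of the other SMADs, those of the BMP branch and its inhibitor, Smad1 and Smad5 had medians of 54.0 and 97.3 TPM in NSC, Smad6 4.81 TPM and Smad9 0.300 TPM. In NSC against BP 1 of 3 tested was higher (Smad6, 0.59 ± 0.08, SE, adjusted p = 9.27e-08). In NBN against BP Smad1 was higher (0.19 ± 0.05, SE, adjusted p = 0.00232) and Smad5 and Smad6 lower, the latter by -0.78 ± 0.11 (SE, adjusted p = 4.16e-08). The medians of this list were 0.026 in NSC against BP and -0.47 in NBN against BP, beside 0.0019 and -0.063 over all genes tested.

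Among relatives of Ski, 3 of 4 tested were lower in NSC than in BP (20.8% of all genes) and 0 higher. The list median was -0.37 beside 0.0019 over all genes. Dach2 led (-0.40 ± 0.11, SE, limma, adjusted p = 0.00144) at low levels, with medians of 1.01 TPM in NSC and 1.43 TPM in BP. Skor1 had medians of 0.128 TPM in NSC and 0.134 TPM in BP, and Dach1 had 27.4 and 18.5 TPM. In NBN against BP 2 of 4 were lower, led by Skida1 (-1.38 ± 0.12, SE, adjusted p = 2.46e-14), with a median of -0.82. Over time 3 of 4 fell in NSC and 4 of 4 in BP, with Dach1, a Ski-related transcription factor, at -3.32 ± 0.27 in NSC (SE, adjusted p = 3.91e-15) and -2.24 ± 0.30 in BP (SE, adjusted p = 2.65e-08). These medians were -1.17 and -1.31, beside 0.089 and 0.095 over all genes.

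Of 15 genes that regulate SMAD or Ski protein, 4 were higher and 3 lower in NSC than in BP, with a median of -0.11. Ldlrad4, which keeps SMADs from the receptor, was the firmest of the higher ones (0.59 ± 0.08, SE, adjusted p = 2.3e-08) and Nedd4l, a ubiquitin ligase, of the lower ones (-0.36 ± 0.06, SE, adjusted p = 1.18e-06). Between NBN and BP 4 were higher and 6 lower, with a median of 0.011. Ldlrad4 was higher there by 1.59 ± 0.10 (SE, adjusted p = 3.11e-18), and Tgif2, a SMAD co-repressor, lower by -1.44 ± 0.09 (SE, adjusted p = 4.2e-19). Over time in NSC 5 rose and 2 fell, among them Nedd4l (2.05 ± 0.12, SE, adjusted p = 5.32e-20) and Tgif1, the relative of Tgif2 (-3.32 ± 0.19, SE, adjusted p = 6.84e-20), with a median of 0.032.

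Co-repressor partners of Ski differed in both directions. In NSC against BP 6 of 19 were higher (27.2% of all genes), 5 lower (20.8%) and 8 did not pass, with a median of -0.081. Prmt5, an arginine methyltransferase, led the higher ones (0.41 ± 0.04, SE, adjusted p = 1.29e-12) and Chd4, a chromatin remodeller, the lower ones (-0.26 ± 0.05, SE, adjusted p = 3.08e-05). In newborn neurons against BP 3 were higher (25.3% of all genes), 10 lower (33.3%) and 6 did not pass, with a median of -0.28 beside -0.063 over all genes. Hdac1, a histone deacetylase, was lower by -1.21 ± 0.07 (SE, adjusted p = 3.14e-21). Over time in NSC 4 rose and 8 fell, with a median of -0.22, and Hdac1 was the firmest of those that fell (-1.58 ± 0.10, SE, adjusted p = 1.77e-18). The median sum of the neuronal markers was higher at E17.5 than at E11.5 in NSC, as given above, and their part in these values was not tested.

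Upstream of the SMADs, in NSC 7 of 9 tested TGF-beta and activin ligands rose (37.1% of all genes) and 1 fell (27.7%), with a median change of 1.61 beside 0.089 over all genes. Tgfb3 rose by 1.61 ± 0.10 (SE, adjusted p = 2.98e-18) and Gdf11 fell, by -1.16 ± 0.13 (SE, adjusted p = 1.92e-10). In BP 5 rose (27.5% of all genes) and 1 fell (15.1%), led by Inhbb, an activin subunit (4.32 ± 0.30, SE, adjusted p = 1.15e-16), and again with Gdf11 as the gene that fell (-0.74 ± 0.15, SE, adjusted p = 7.08e-05). Markers of non-neural cells rose over the same days: in NSC 6 of 6 for meninges and fibroblasts (median 1.58), 9 of 9 for microglia (median 2.12) and 5 of 8 for endothelium (median 0.72), and in BP 8 of 8 for endothelium (median 1.36) and 3 of 6 for meninges. Endothelial sums were at 2.55 to 42.8 TPM in NSC and 1.36 to 114 TPM in BP. The part of these cells in the ligand levels was not tested. Between cell types 4 were higher and 1 lower in NSC than in BP, with Tgfb3 higher by 0.61 ± 0.05 (SE, adjusted p = 3.85e-14) and Gdf11 lower by -0.18 ± 0.07 (SE, adjusted p = 0.0244). For the ligands in NBN against BP 3 were higher and 4 lower, with Inha, the inhibin subunit that opposes activin, higher by 1.22 ± 0.11 (SE, adjusted p = 5.91e-14) and Tgfb2 lower by -1.78 ± 0.15 (SE, adjusted p = 2.91e-14).

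Receptors were lower in NSC than in BP for 6 of 9 (20.8% of all genes) and higher for 0 (27.2%), with a median of -0.27 beside 0.0019 over all genes, and the activin receptor Acvr1b was the firmest (-0.32 ± 0.04, SE, adjusted p = 4.24e-08). Of the receptors 4 were higher in NBN than in BP, led by Acvr1c (0.68 ± 0.11, SE, adjusted p = 4.4e-07), and 2 were lower, led by Acvr2b (-0.86 ± 0.11, SE, adjusted p = 2.68e-09). Over time in NSC 2 rose and 2 fell, with Acvr1b at 0.63 ± 0.09 (SE, adjusted p = 3.53e-08) and Acvr2b at -1.89 ± 0.17 (SE, adjusted p = 1.24e-13).

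Known targets of SMAD2 and SMAD3 differed in both directions. Their list shares Ldlrad4, Tgif1 and Pmepa1 with the genes that regulate SMAD or Ski protein, so some values appear in both. It also shares Col1a1 with the meninges and fibroblast markers, which rose over the NSC days as given above. The part of such cells in the target levels was not tested. In NSC against BP 5 of 13 tested were higher and 1 lower, with a median of 0.070. Ctgf, a secreted matrix protein, was higher by 2.24 ± 0.13 (SE, adjusted p = 1.77e-19), and Cdkn1a, the cell cycle inhibitor p21, was lower by -1.14 ± 0.13 (SE, adjusted p = 4.45e-10). In NBN against BP 4 were higher and 4 lower, with a median of -0.016, the firmest being Ldlrad4 (1.59 ± 0.10, SE, adjusted p = 3.11e-18) and Tgif1 (-1.40 ± 0.13, SE, adjusted p = 1.08e-13). Over the NSC days, on which Smad3 fell, 7 rose and 4 fell, with a median of 0.81 beside 0.089 over all genes. The firmest were Ldlrad4 (2.58 ± 0.16, SE, adjusted p = 8.87e-19) and Tgif1 (-3.32 ± 0.19, SE, adjusted p = 6.84e-20). In BP 6 rose and 4 fell, with a median of 0.35, led by Ltbp2 (1.06 ± 0.09, SE, adjusted p = 1.41e-13) and Cdkn1a (-3.13 ± 0.30, SE, adjusted p = 3.69e-12).

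The shares of all genes called higher depended on scaling, which bears on the small differences above. Of the genes that passed, 56.6% were higher in NSC than in BP (44.8% with quantile scaling), 40% in NBN than in NSC (51.4% with median-of-ratios scaling, 52.6% with quantile), 57.2% over the NSC days (46.8% with quantile), 64.5% over the BP days (51.1% and 51.2%) and 68.3% over the NBN days (55% with quantile). For slope differences the share was 42.4% for NBN minus BP (57.3% and 60.5%) and 29.7% for NBN minus NSC (42% and 56.4%). The median of all genes was -0.12 in both of these last comparisons and 0.011 and -0.011 with median-of-ratios scaling. The directions given for Ski, Skil and Smad3 in the differences and slopes that passed were the same under both scalings.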

How the data were processed

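TPM per gene are the deposited values, made by the authors with kallisto 0.43.0, per the submitters' processing notes, which list GRCm38.p2 and mm10 as builds. Cells were sorted by GFP after papain digestion and sequenced as single reads, per the labels' protocols. Depth is unknown, since no read counts were used, so error here means spread between libraries.

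TPM were transformed to log2(TPM + 1), which understates changes of low genes. Genes reaching 1 TPM in 3 or more libraries entered (15231, all 6 included). Using limma 3.58.1 (R 4.3.3), 1 mean per group (19) was fitted over all 63 libraries, with a trend of variance on level, and the procedure was tested on simulated data. Genes named are the 6, the gene of smallest adjusted p in each direction of a list, and the 3 closest profiles of each of the 6. 1 gene that the rule names is not reported here. The members and lists were chosen with earlier results of these data known. Alternatives were pseudocounts of 0.1 and 5, no filter or a mean of at least 5 TPM, median-of-ratios and quantile scaling, library weights (gene by gene), a Y-linked covariate, only the compared libraries, a replicate block, last minus first day, only E12.5 to E14.5, without E18.5, without the 8 libraries beyond 1.5 SD on the axis, and without each library. Libraries correlated at r of at most 0.996, and none was counted as a repeat of another.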

Additional observations from a re-analysis of the deposited data

Results flagged for a closer look

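Within groups of 4 to 6 libraries, 30 sets of values of the 6 genes were checked for a single library far from the rest, and chance alone flags about 1 in 20. Ski in BP of E14.5 replicate 6 was at 22.4 TPM, below the other 5 libraries at 27.0 to 29.1 TPM. In BP of E17.5, replicate 2 was low in Skil at 15.8 TPM, where the other 3 were at 32.3 to 35.4 TPM, and low in Smad2 at 94.7 TPM, where the others were at 102 to 103 TPM. On the leading component of deviations from group means, that library lies at -2.05 SD. Groups of 3 were not checked in this way, among them BP of E13.5 with its Ski values of 17.2, 18.1 and 37.4 TPM.

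A difference between cell types in the course of a gene passed for Smad3: over E12.5 to E18.5 the NSC slope minus the BP slope was -1.14 ± 0.23 (SE, limma, adjusted p = 0.000149).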

How the results depend on the processing

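Leaving out each library in turn gave 4536 values for the 6 genes, of which 4471 kept their direction and their side of the threshold, and the other alternatives gave 835 of 906. Every call of Ski made above held in all of them, as did those of Smad3 for NSC minus BP, NBN minus BP, the NSC and NBN courses and the slope difference of NSC and BP. The cause of each change below was not tested unless the alternative itself has fewer libraries or genes.

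Differences between cell types. In NSC minus BP, Skil passed with median-of-ratios scaling (-0.24), quantile scaling (-0.24), without E18.5 (-0.32), without the libraries far on the axis within groups (-0.22) and over E12.5 to E14.5 (-0.47). Smad2 passed there with median-of-ratios scaling (-0.096) and library weights (-0.058), and Smad7 was lost with quantile scaling (0.11) and over E12.5 to E14.5 (0.13). In NBN minus BP, Smad2 was lost with median-of-ratios scaling (-0.075) and without E18.5 (-0.13). In NBN minus NSC, values near 0 changed sign: Skil to 0.036 and 0.035 with the 2 scalings and 0.12 without E18.5, Smad2 to 0.022 with median-of-ratios scaling, and Smad3 to -0.0017 with a pseudocount of 0.1, -0.034 without E18.5 and -0.024 without the far libraries. There Smad2 passed with library weights (-0.087) and Smad7 with quantile scaling (0.26).

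Courses. As last day minus first, Skil in NSC (-0.040) and Smad3 in BP (-0.35) were lost and, in NSC, Smad2 (0.11), Smad4 (0.060) and Smad7 (0.018) changed sign. Smad3 in BP was also lost without E18.5 (-0.52). Smad4 changed sign in NSC with library weights (0.033) and in BP with median-of-ratios scaling (-0.074), quantile scaling (-0.00060) and without E18.5 (-0.020). Smad7 passed in NSC with quantile scaling (-0.39) and changed sign in NBN (-0.043). Smad2 passed in BP with median-of-ratios scaling (-0.19). Skil passed in NBN with library weights (-0.59) and without the far libraries (-0.54).

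Slope differences. For NSC minus BP, Skil passed with median-of-ratios scaling (0.84), quantile scaling (0.81), library weights (0.83) and without the far libraries (0.68), and Smad2 changed sign without E18.5 (-0.049) and without the far libraries (-0.031). For NBN minus BP, Smad3 passed with library weights (0.72) and Smad2 changed sign with median-of-ratios scaling (0.022). For NBN minus NSC, Smad3 passed with a pseudocount of 5 (0.61), median-of-ratios (0.90) and quantile scaling (1.05), library weights (0.68) and without the far libraries (0.81), and Skil passed with library weights (-0.85) and without the far libraries (-0.83). Sign changes there were Ski at 0.015 and 0.033 with the 2 scalings, Smad2 at 0.011 with median-of-ratios scaling and 0.012 without E18.5, and Smad4 at 0.080 and 0.078 under the same 2 settings.

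Counts of genes that passed moved by over 1.5 times as follows. With library weights they were 5073 for the NBN slope (2441 in the main analysis), 2437 for the slope difference NBN minus BP (519), 7372 for NBN minus NSC (1617), 12258 for BP days (5874) and 7606 for NBN days (1625). Without E18.5 they were 1414, 196, 23 for these same first 3 results, and 906 for NBN days. With a mean of at least 5 TPM they were 299 for NBN minus BP, 976 for NBN minus NSC and 1069 for NBN days. Without the far libraries they were 3278 for the slope difference NBN minus NSC and 3893 for NBN days, and as last day minus first the NSC minus BP slope difference had 1304 (4545).

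Leaving out 1 library gave these ranges where a call or sign changed. In NSC minus BP, Skil ran from -0.28 to -0.18 and Smad2 from -0.097 to -0.061. In NBN minus BP, Skil ran from -0.16 to 0.0057. In NBN minus NSC, Skil ran from -0.11 to 0.041, Smad3 from -0.040 to 0.047 and Smad7 from -0.013 to 0.065. The NSC courses were -0.67 to -0.49 for Skil and -0.092 to 0.00072 for Smad4, the BP courses -0.69 to -0.35 for Smad3 and -0.54 to -0.44 for Smad7, and the NBN courses -0.13 to 0.0097 for Ski and -0.083 to 0.20 for Smad7. Slope differences for NSC minus BP were 0.73 to 0.93 for Skil and -0.020 to 0.060 for Smad2. For NBN minus NSC they were 0.62 to 0.88 for Smad3, -0.13 to 0.00089 for Smad4 and -0.029 to 0.25 for Smad7, with 853 to 2679 genes that passed. For NBN days 986 to 1921 genes passed. In the F tests over days, calls of Smad2, Smad4, Smad7 or Skil were gained with library weights, the scalings or fewer libraries, and that of Skil in NSC was lost without any of 3 libraries.

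The replicate numbers do not pair the samples: over pairs of groups, deviations of same-numbered libraries correlated at a mean of 0.040 and those of other numbers at -0.015, and the lowest same-number value was -0.59. The replicate block fits 1 effect per replicate number over all days and cell types, so it does not model pairs within a day. With this block, the slope difference NSC minus BP of Skil was 0.85 (limma, adjusted p = 0.0487). No other call of the 6 genes changed, and no count changed by over 1.5 times. Without read counts, the limit that depth sets on Smad7, the least abundant, cannot be given.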
